A study of Mus musculus with 18 samples.

Results

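Transcript levels were compared between day 10 (D10) and day 7 (D7) of a cardiac differentiation of mouse embryonic stem cells. The comparison uses 6 of the 18 polyA RNA-seq libraries of a time course with harvests at D5, D6, D7, D8, D10 and D15. All 3 libraries labelled D7 and all 3 labelled D10 entered it, chosen by the day of harvest alone. All groups share the cell line TBX5-FTA, the strain background A2Lox.cre and the label untreated, so no result bears on a mutant or a treated culture. GEO's labels call the D7 cells cardiac progenitors and the D10 cells immature cardiomyocytes. The D8 harvest lies between them and carries the same cell type label as D10; it was left out of the contrast and is given as a level only. Every library was made from this 1 line. No label says whether replicate libraries were grown apart, and the p-values below then gauge only how far these libraries differ, which could be technical scatter. Of 23337 gene symbols in the count table, 13116 passed the filter on low counts and were tested.

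Cardiac progenitors become cardiomyocytes by assembling sarcomeres, the contractile units built of myosin, actin, troponins and titin, and by installing the channels and calcium stores that couple excitation to contraction. The same mesoderm gives rise to the epicardium, a mesothelial sheet that covers the heart, secretes retinoic acid and supplies cardiac fibroblasts, which deposit the collagen matrix. The RNA-binding protein LIN28A marks early embryonic cells, blocks the let-7 microRNAs and is lost as tissues mature.

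Levels below are CPM, counts scaled to the library total with TMM factors, given for D7 in the library order MR25, MR26, MR27 and for D10 in the order MR31, MR32, MR33. Each fold change is the log2 of D10 over D7 from edgeR's quasi-likelihood fit, n = 3 libraries a day. The value after ± is an approximate standard error (SE). edgeR reports none, so it was worked back from the F statistic of the gene's test. For large changes it can fall below the counting error of the lower day, as for Aldh1a2 with 0, 5 and 1 counts at D7. Such ± values overstate the precision of the fold change. A gene is said to have risen or fallen where its adjusted p (Benjamini-Hochberg over all 13116 genes) was under 0.05. Totals ran from 6339689 to 6417737 counts at D7 and from 5257601 to 6506504 at D10. Libraries of a day lay a mean 0.395 (D7) and 0.396 (D10) apart, and the days lay 1.02 apart. This distance is the root mean square difference in log2 CPM over the genes tested.

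By D10, 7070 genes had changed (53.9% of those tested): 3597 had risen (27.4%) and 3473 had fallen (26.5%). Most changes were small, with a median size of 1.52-fold among the genes that passed. Changes shown to exceed 2-fold were far fewer and ran mostly upward: 1303 genes passed that test (9.93%), 1093 rising (8.33%) and 210 falling (1.6%), which asks whether the fold change is larger than 2. Every D10 library lay above every D7 library for 29.7% of the genes tested, and below for 29%. The counts for gene lists below are to be read against these shares. The median log2 fold change over all genes was -0.003.

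**Figure D1:**
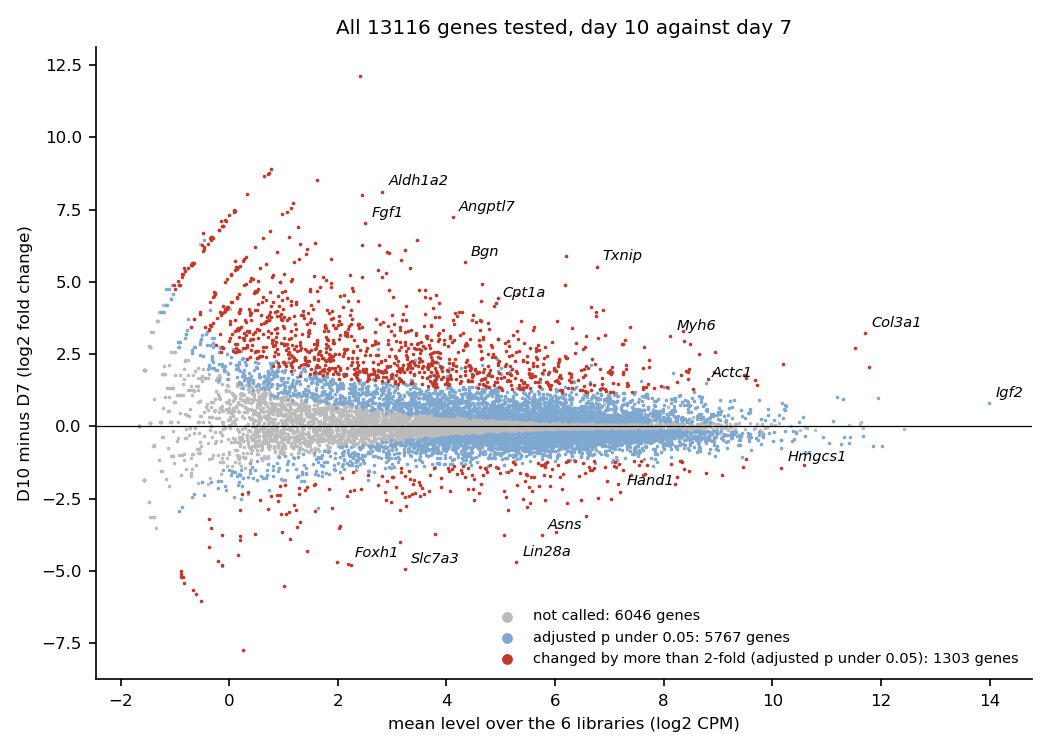
Each point is 1 of 13116 genes, with its mean level over the 6 libraries (log2 CPM) on the x axis and its log2 fold change, D10 minus D7, on the y axis. Red points (1303 genes) changed by more than 2-fold; 1093 of them lie above 0 and 210 below.

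The D7 libraries, labelled as progenitors, already held cardiomyocyte transcripts. Tnnt2, cardiac troponin T, read 372, 317 and 184 CPM at D7 and 698, 565 and 342 CPM at D10. Ryr2, the calcium release channel, read 57.6, 63 and 30.7 at D7 and 206, 139 and 90.3 at D10. Nkx2-5, a homeobox factor that defines heart muscle, was low on both days, at 3.28, 1.39 and 0.465 CPM at D7 and 8.75, 6.39 and 1.93 CPM at D10, and its difference missed the threshold (log2 fold change 1.74 ± 0.72, adjusted p = 0.0552; adjusted p = 0.0344 with limma-voom, and under 0.05 without MR25 or without MR33). Of the progenitor markers, Mesp1 had no count in any of the 6 libraries. Isl1, the second heart field factor, read 9.23, 7.25 and 3.26 at D7 and 6.91, 10 and 6.19 at D10. Some other progenitor markers were abundant at D7. Hand1 read 307.5, 290.5 and 369 CPM there, Gata4 455, 428 and 342 CPM, and Pdgfra 232, 224 and 218 CPM. Among these, only Hand1 had fallen by D10. Matrix and epicardial transcripts, described below, were present on both days too. In bulk RNA, fewer cells of a type cannot be told apart from less RNA per cell.

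The genes with the largest rises, among genes with a mean of at least 2 on the log2 CPM scale and no overlap between the days, were mostly not contractile. Aldh1a2, which makes retinoic acid in the epicardium, read 0, 0.771 and 0.155 CPM at D7 and 92, 87.9 and 91.9 CPM at D10 (log2 fold change 8.12 ± 0.30, adjusted p = 8.08e-16). The row named Clca1 had no count at D7 and 1544 counts over the D10 libraries, at least 579-fold higher against a floor of 3 counts over the D7 group (adjusted p = 4.76e-20). Next in size came the PAR bZIP transcription factor Hlf (8.02), the secreted factor Angptl7 (7.24), the growth factor Fgf1 (7.02), the peptidase Enpep (6.43), the prostaglandin synthase Ptgs1 (6.28) and the oxygen-sensing prolyl hydroxylase Egln3 (6.27). Gpm6a (6.09), Dbc1 (6.01) and the collagen Col6a3 (5.89) were also among the 12 largest rises.

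By the same conditions, Slc7a3, Msx1, Foxh1 and Lin28a had the largest falls. Slc7a3, a transporter of cationic amino acids, read 38.9, 53.2 and 53 CPM at D7 and 1.69, 1.04 and 1.93 CPM at D10 (log2 fold change -4.95 ± 0.22, adjusted p = 1.89e-17). Msx1, a homeobox gene induced by BMP, read 16.5, 19.6 and 32.6 at D7 and 0.461, 0.345 and 1.74 at D10 (-4.80), and Foxh1, the DNA-binding partner of Nodal-activated SMADs, read 20.3, 23 and 18.1 at D7 and 0.921, 0.863 and 0.387 at D10 (-4.75). Lin28a fell from 195 to 7.53 CPM in the mean (log2 fold change -4.70 ± 0.11, adjusted p = 7.71e-24), and no D10 library came near any D7 library. Sall4 (-4.00), asparagine synthetase Asns (-3.77), Nr6a1 (-3.77), Trim71 (-3.73), Prtg (-3.64), P2rx3 (-3.53), Trib3 (-3.44) and the amino acid transporter Slc7a5 (-3.11) made up the rest of the 12.

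Contractile genes rose as a group, with wide spread among the libraries of a day. Of 10 myosin and myosin-associated genes tested, 8 rose and none fell, with a median log2 fold change of 2.23, and 4 exceeded 2-fold. Myh6, the alpha heavy chain of the adult mouse heart, read 158, 129 and 36.9 CPM at D7 and 1418, 939 and 455 CPM at D10 (log2 fold change 3.12 ± 0.61, adjusted p = 0.000836). Myh7, the beta chain, read 67, 74.1 and 40.9 at D7 and 149.5, 105 and 43.7 at D10, overlapped between the days and did not pass (log2 fold change 0.73, adjusted p = 0.19). The lowest D10 library for Myh6, MR33, stood above the highest D7 library, MR25, but far below MR31.

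Light chains moved in the same direction at unequal size. Myl2, the ventricular regulatory light chain, read 9.08, 5.86 and 0.31 CPM at D7 and 79.7, 57.5 and 30.9 CPM at D10 (log2 fold change 3.46 ± 0.59, adjusted p = 0.000265). Myl7, its atrial counterpart, read 262, 167 and 73.5 at D7 and 821, 601 and 364 at D10 (log2 fold change 1.83 ± 0.51, adjusted p = 0.00888; adjusted p = 0.0619 when the 6 libraries were fitted alone). Mybphl, a myosin-binding protein of the atria and conduction system, read 0.596, 0.309 and 0.31 at D7 and 13, 12.3 and 7.54 at D10 (log2 fold change 4.70 ± 0.44, adjusted p = 8.03e-10) and was the member with the largest fold change. Myh7b rose by 2.32 on the log2 scale.

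Of 12 thin filament genes, 10 rose and 1 fell (median 1.28; 3 rose by more than 2-fold). Tnni3, the cardiac troponin I, read 8.79, 5.55 and 1.71 CPM at D7 and 131, 81.7 and 38.5 CPM at D10 (log2 fold change 3.97 ± 0.64, adjusted p = 0.000176); the days did not overlap. Tnnt1 (3.30), the leiomodin Lmod2 (3.09) and the pointed-end cap Tmod1 (1.90) also rose. Actc1, the cardiac actin, read 416, 307 and 135 CPM at D7 and 1191, 841 and 405 CPM at D10 (log2 fold change 1.51 ± 0.50, adjusted p = 0.0228), and Tnnt2, given above, rose by 0.88 ± 0.33 (adjusted p = 0.0367). For both, the lowest D10 library, MR33, lay below the highest D7 library. Neither call held when the 6 libraries were fitted alone (adjusted p = 0.112 for Actc1 and 0.141 for Tnnt2), nor without MR26, MR27 or MR31, and that of Tnnt2 was lost without MR32 too. The number of risen thin filament genes fell from 10 to 4 in that fit, to 5 without MR27 or without MR31, and to 6 without MR26.

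Acta1, the skeletal muscle actin that early heart cells also transcribe, went the other way, at 18.3, 27.3 and 20 CPM at D7 and 9.06, 10.4 and 7.54 CPM at D10 (log2 fold change -1.27 ± 0.22, adjusted p = 5.5e-05). All 3 D10 libraries lay below all D7 libraries. The starts of Actc1 and Acta1 are shown because these actins moved in opposite directions while both windows hold a CArG box, the site of serum response factor, which stands in capitals. RefSeq windows (GRCm38.p6) of 250 bases before to 50 after the start were searched on both strands, and the 200 bases up to the start are printed 5′ to 3′ on the gene's strand. In the Acta1 stretch a TATA box (TATAAA) is in capitals too. The CArG box was found in 3 of 17 thin filament windows (17.6%) and in 1.63% of all 32851 windows, and TATAAA in 13.6% of all windows; matches are descriptions of letters, not of binding. The Actc1 stretch is chr2:114052876-114053075, minus strand, and the Acta1 stretch is chr8:123894776-123894975, minus strand.
Actc1: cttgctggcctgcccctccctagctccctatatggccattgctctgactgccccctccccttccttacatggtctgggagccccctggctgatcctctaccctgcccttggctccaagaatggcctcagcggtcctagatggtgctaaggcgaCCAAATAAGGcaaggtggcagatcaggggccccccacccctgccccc
Acta1: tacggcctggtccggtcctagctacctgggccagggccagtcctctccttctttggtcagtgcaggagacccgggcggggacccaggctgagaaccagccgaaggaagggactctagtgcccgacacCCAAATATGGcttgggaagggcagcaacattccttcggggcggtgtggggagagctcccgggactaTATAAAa

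Z disc, M band and titin genes followed: of 21 tested, 17 rose, none fell and 7 exceeded 2-fold (median 1.35). Csrp3, a Z disc stretch sensor, read 6.85, 7.25 and 5.12 CPM at D7 and 118, 87.9 and 38.3 CPM at D10 (log2 fold change 3.67 ± 0.52, adjusted p = 5.84e-05), with no overlap. Ttn, the giant spring of the sarcomere, read 71.2, 84.4 and 35.2 at D7 and 272, 183 and 94.4 at D10 (log2 fold change 1.53 ± 0.52, adjusted p = 0.0244; adjusted p = 0.0798 in the 6 libraries alone, and past 0.05 without MR27 or MR31). Des, the intermediate filament of muscle, read 157, 149 and 119 at D7 and 305, 292 and 311 at D10 (log2 fold change 1.09 ± 0.10, adjusted p = 6.93e-09). Myoz2 had no count at D7 and 32 counts at D10, at least 12-fold higher. In number, 10 Z disc genes rose when the 6 libraries were fitted alone.

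Within pairs of related genes, the share of counts shifted toward Myh6, Tnni3, Actc1 and Myl2, the forms that the adult mouse ventricle uses. These shares were chosen after their values were seen, are not corrected for transcript length, and with 3 libraries against 3 the exact two-sided permutation test cannot go below 0.1, the p each of the following reached. Myh6 held 70.2%, 63.6% and 47.4% of the Myh6 and Myh7 counts at D7 and 90.5%, 89.9% and 91.2% at D10. Tnni3 held 2.31%, 1.91% and 0.857% of the counts of Tnni3 and the slow skeletal form Tnni1 at D7, 20.4%, 15.2% and 8.58% at D10, and a mean 49% at D15. Actc1 held a mean 91.6% of the Actc1 and Acta1 counts at D7 and 98.7% at D10. Myl2 held 2.39% of the Myl2 and Myl7 counts at D7 in the mean, 10% at D8 and 8.47% at D10, so the D10 mean did not exceed that of D8. The 3 D10 libraries agreed closely in the Myh6 share although their Myh6 levels differed.

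**Figure D2:**
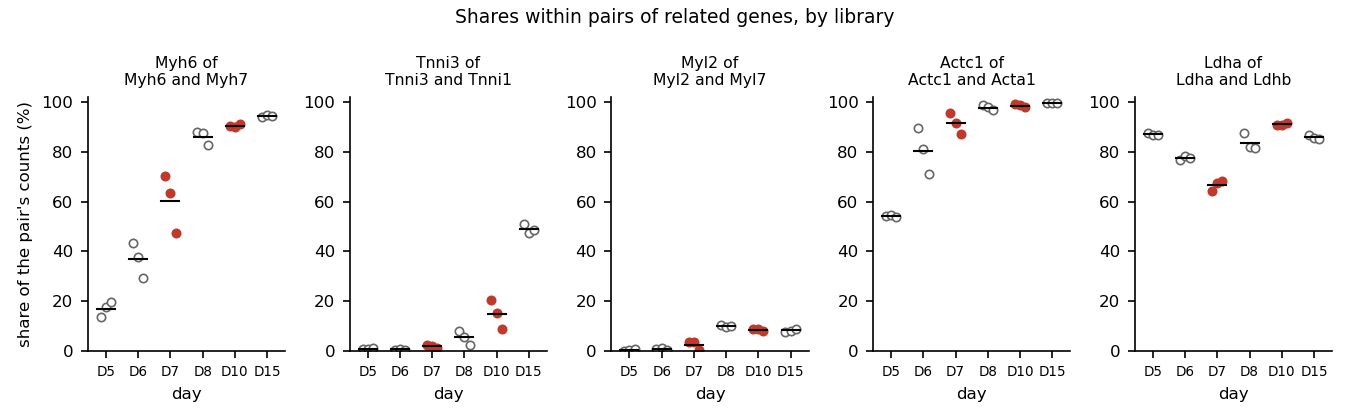
Share of counts (%) held by the first gene of each pair, by day of differentiation, in each library (points; D7 and D10 in red) with the mean of the day (bar). All D10 points lie above all D7 points in each of the 5 panels, and the Ldha share dips at D7 before it rises.

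Calcium handling genes rose: of 16 tested, 13 rose and 1 fell (median 1.26; 3 exceeded 2-fold). Pln, phospholamban, the brake on the sarcoplasmic calcium pump, read 3.42, 4.63 and 0.93 CPM at D7 and 92.7, 73.2 and 30.0 CPM at D10 (log2 fold change 4.45 ± 0.57, adjusted p = 2.47e-05). Casq2, the calcium buffer of the store, had no count at D7 and 167 counts at D10, at least 62.6-fold higher (adjusted p = 5.39e-05). The calcium sensor S100a1 (1.17) and Asph, the gene of junctin and junctate (0.37), rose less. Jph1, the junctophilin typical of skeletal muscle, fell (17.1, 20.4 and 21.9 CPM at D7 and 12.9, 10.7 and 12.6 CPM at D10; log2 fold change -0.71 ± 0.15, adjusted p = 0.000304).

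Among 24 channel and connexin genes, 16 rose and 2 fell, with a median of 1.72, and 12 rose by more than 2-fold, against 8.33% of all genes. Genes of T-type calcium channels, which open at low voltage, rose: Cacna1g read 0.893, 0.771 and 0.93 CPM at D7 and 23.3, 17.6 and 12.2 CPM at D10 (log2 fold change 4.34 ± 0.31, adjusted p = 3.03e-12), and Cacna1h read 11.5, 11.1 and 9.77 at D7 and 105, 76.1 and 45.3 at D10 (2.81). Gja5, connexin 40 of atria and conduction fibres, had no count at D7 and 141 at D10, at least 52.8-fold higher (adjusted p = 6.72e-09). Gja1, connexin 43, fell a little, at 439.7, 458 and 470.2 CPM at D7 and 338, 356 and 352 CPM at D10 (log2 fold change -0.39 ± 0.06, adjusted p = 4.78e-06), and so did the potassium channel Kcnd3 (-0.63). Cacna1g stood at 1.22 CPM at D8, close to D7.

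Cardiac transcription factors had smaller changes than the contractile lists. Of 16 tested, 7 rose and 2 fell (median 0.50; none rose by more than 2-fold). Tbx5, a T-box factor of the first heart field whose gene names the cell line, read 35.7, 28.9 and 13.3 CPM at D7 and 80.9, 69.8 and 44.3 CPM at D10 (log2 fold change 1.33 ± 0.34, adjusted p = 0.00536; adjusted p = 0.0606 in the 6 libraries alone). Gata6 (0.57), Zfpm2 (1.01), Mef2d (0.50) and Prox1 (1.21) rose, and Gata4, at 455, 428 and 342 CPM at D7 and 498, 502 and 458 CPM at D10, did not pass (0.25, adjusted p = 0.155). Hand1, a bHLH factor of early lateral mesoderm and left ventricle, fell, at 307, 291 and 369 CPM at D7 and 70.9, 59.9 and 71.6 CPM at D10 (log2 fold change -2.26 ± 0.17, adjusted p = 8.11e-08). Tead1, a DNA-binding partner of YAP, fell by 0.75 on the log2 scale.

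Progenitor genes fell more often than they rose. Of 16 second heart field and progenitor genes that were tested, 8 fell and 4 rose (median -0.65). Among the falls were the anterior Hox genes Hoxb1 (25.2, 29.2 and 22.2 CPM at D7 and 5.07, 4.14 and 5.22 CPM at D10; log2 fold change -2.40 ± 0.19, adjusted p = 4.1e-11) and Hoxb2 (-1.47) and the chromatin remodelling subunit Smarcd3 (-1.06). Foxc2 (2.42), Foxc1 (1.06), the ligand Wnt11 (1.05) and the receptor Pdgfra (0.24) rose instead.

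Atrial and ventricular genes rose more often than they fell. Of 12 atrial genes, 5 rose and 1 fell (median 0.47; 3 rose with the 6 libraries alone), and of 10 ventricular genes, 5 rose and 2 fell (median 1.26). Shox2, of the sinus node and inflow tract, read 3.72, 4.47 and 3.1 CPM at D7 and 24.3, 15 and 7.35 CPM at D10 (log2 fold change 2.06 ± 0.52, adjusted p = 0.00441), Dkk3 rose by 1.8 and Nr2f2 by 0.66, while Tbx3 fell (-1.32). Hey2, a Notch effector of compact ventricular muscle, read 2.38, 2.93 and 5.27 at D7 and 42.1, 32.3 and 24.4 at D10 (log2 fold change 3.23 ± 0.32, adjusted p = 8.29e-08), and Lbh rose by 2.84 and Smpx by 2.42. Of the natriuretic peptide genes, Nppa read 4.47, 5.55 and 3.72 CPM at D7 and 6.45, 4.83 and 5.42 CPM at D10 and did not pass (adjusted p = 0.459), and Nppb fell, at 5.96, 7.56 and 6.36 CPM at D7 and 0.461, 0.173 and 1.16 CPM at D10 (log2 fold change -3.48 ± 0.49, adjusted p = 6.98e-07).

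Libraries of a day differed in these muscle genes and, in the opposite order, in the matrix genes. The myosin, thin filament and Z disc lists together held 0.552%, 0.511% and 0.391% of all counts at D7 and 1.18%, 0.924% and 0.638% at D10. The fibroblast and matrix list held 1.55%, 1.57% and 1.93% at D7 and 3.87%, 4.03% and 4.8% at D10. Thus MR27 and MR33 had the lowest muscle share and the highest matrix share of their days. The highest library exceeded the lowest by 1.41-fold at D7 and 1.84-fold at D10 for muscle, against 1.02 and 1.08 for the epicardial list. The part of cell make-up in these differences was not tested.

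**Figure D3:**
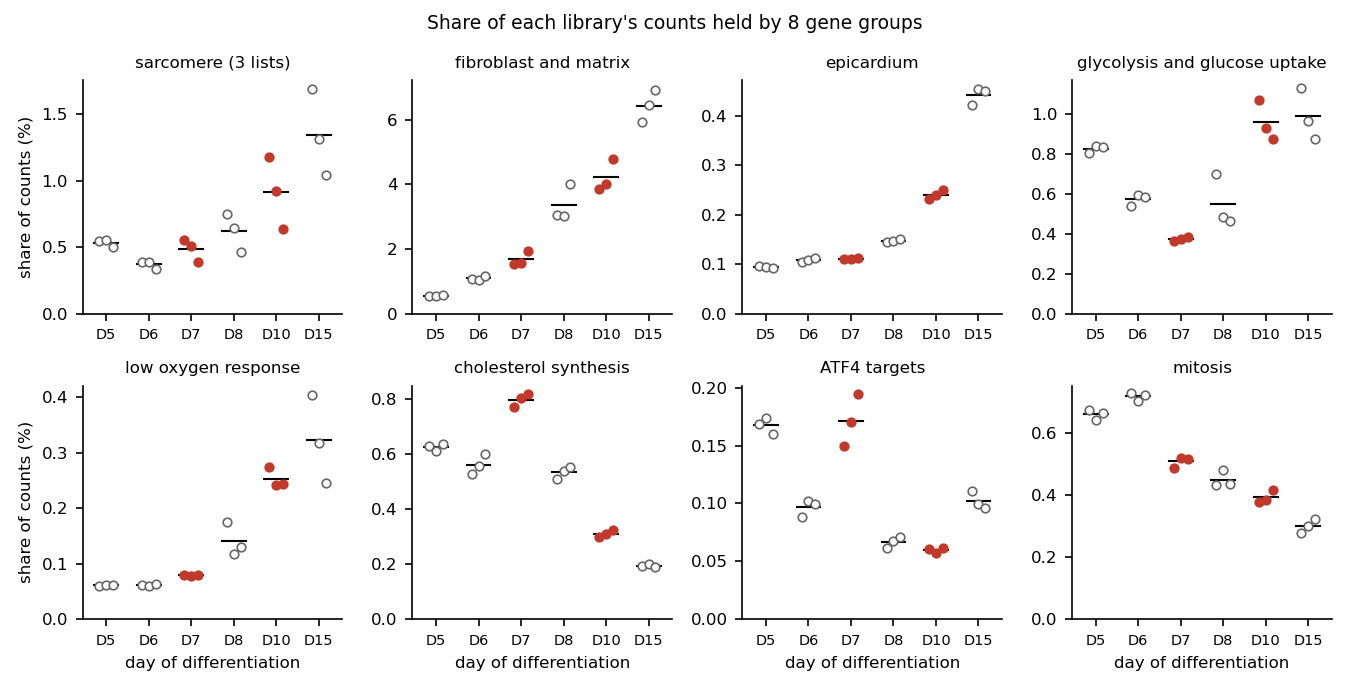
Percent of all counts of a library held by 8 gene groups on each day of differentiation (points, 1 per library; D7 and D10 in red; bars, mean of the day). D7 and D10 do not overlap in any panel. Within D7 and D10 the ratio of the highest to the lowest library is largest for the sarcomere lists. For cholesterol synthesis and ATF4 targets D7 lies above both D6 and D8, and for glycolysis it lies below both.

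Matrix genes made the largest gains in counts. Of 23 fibroblast and matrix genes tested, 17 rose and 1 fell, 13 of them rising by more than 2-fold (median 2.06). Col3a1, a fibrillar collagen of soft tissue, read 1078, 959 and 1264 CPM at D7 and 9071, 9706 and 12003 CPM at D10 (log2 fold change 3.22 ± 0.17, adjusted p = 2.12e-09). Col1a1 read 1651, 1575 and 1968 at D7 and 6668, 7154 and 7777 at D10 (log2 fold change 2.06 ± 0.14, adjusted p = 2.69e-08), and Col1a2 rose by 2.70. Every D10 library lay above every D7 library for these collagens, and MR27 and MR33 were the highest of their days.

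Bgn, biglycan, a small proteoglycan that binds collagen, read 2.83, 3.39 and 1.86 CPM at D7 and 152, 136 and 128 CPM at D10 (log2 fold change 5.67 ± 0.14, adjusted p = 5.48e-23), and Lox, which crosslinks collagen, read 15.6, 11 and 13.2 at D7 and 346, 366 and 464 at D10 (4.88). Col6a2 (3.15) and osteoglycin, Ogn (4.16), rose without overlap. The exception, Vim, the intermediate filament of mesenchyme, was abundant on both days and fell slightly, at 1766, 1623 and 1816 CPM at D7 and 1317, 1428 and 1397 CPM at D10 (log2 fold change -0.33 ± 0.06, adjusted p = 6.33e-05). At D8, Bgn stood at 9.91 CPM and Col3a1 at 5079 CPM.

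Basement membrane genes rose less: of 18 tested, 14 rose and none fell (median 0.70; 5 exceeded 2-fold). Col4a1 (214, 275 and 283 CPM at D7 and 1058, 938 and 826 CPM at D10; 1.87), Col4a2 (1.90), the laminin chain Lama2 (2.17) and nidogen, Nid1 (1.65), had the smallest p of the list. The laminin-binding integrin Itga7, which muscle makes, had its largest rise (0.893, 1.08 and 1.09 CPM at D7 and 11.2, 11.6 and 9.67 CPM at D10; log2 fold change 3.39 ± 0.38, adjusted p = 5.14e-08). Col4a1 was highest in MR31, where Col1a1, Col1a2 and Col3a1 were the lowest of D10.

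Epicardial markers rose almost without exception and with little spread. Of 13 tested, 12 rose, none fell and 8 exceeded 2-fold (median 1.88). Wt1, a zinc finger factor of the epicardium, read 66, 66.8 and 64.2 CPM at D7 and 239, 239 and 249 CPM at D10 (log2 fold change 1.88 ± 0.07, adjusted p = 8.7e-19). Upk3b, a mesothelial uroplakin, read 191, 175 and 175 at D7 and 486, 490.4 and 575 at D10 (1.52), and Msln, mesothelin, went from 2 counts to 200, a ratio of 112 with a 95% counting interval of 30.7 to 935. Tcf21, which marks epicardium and its fibroblasts, read 4.91, 5.25 and 4.03 at D7 and 67.9, 76.5 and 56.9 at D10 (3.82). The epicardial list held 0.111%, 0.111% and 0.112% of counts at D7 and 0.232%, 0.24% and 0.251% at D10. Aldh1a2 was still at 2.51 CPM at D8, when Wt1 had reached 126 CPM.

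Other cell types were sparse or mixed. Of 22 endothelial genes, 3 rose and 2 fell (median 0.12; 5 rose without MR33, and 1 fell without MR25, MR27, MR32 or MR33): Npr3 (3.04), Eng (2.25) and Esam (1.33) rose, while Tek (-1.13) and Cldn5 (-0.91) fell, and Pecam1, which joins endothelial cells, read 9.53, 7.71 and 7.44 CPM at D7 and 17.8, 11.1 and 8.7 CPM at D10 and did not pass (adjusted p = 0.0406 with the 6 libraries alone). Smooth muscle genes split: Myh11 (2.38, 7.56 and 5.43 CPM at D7 and 94.9, 87.5 and 55.3 CPM at D10; log2 fold change 3.96 ± 0.35, adjusted p = 4.7e-07), Mylk (3.68) and Smtn (0.45) rose, while Acta2 (2033, 2279.7 and 2351 CPM at D7 and 1396, 1279.8 and 955 CPM at D10; log2 fold change -0.88 ± 0.14, adjusted p = 0.000132) and Tagln (-0.40) fell. Of 7 neural genes tested, 4 rose and 1 fell: Ncam1 (2.86), Mtap2 (1.79), Tubb3 (1.95) and Nes (1.22) rose and Stmn2 fell (-1.23). Yet Sox1, which defines neural precursors, had no count in any of the 6 libraries, and Pax6 read 45 counts at D7 and 31 at D10 in all. Of 14 endoderm genes, 8 were under the filter, Foxa2 at 2 counts on each day, and 1 of the 6 tested, Rbp4, fell (-1.88). Of 10 blood genes found, 6 were under the filter, embryonic globin Hbb-bh1 went from 43 counts to 1 (a ratio of 38.2, 95% counting interval 6.51 to 1545), and Runx1 rose (2.04). Of 12 skeletal muscle genes, 8 were under the filter, among them Myod1, Myog and Pax7, while Actn3 (5.51, 5.55 and 4.03 CPM at D7 and 62.6, 64.1 and 48.7 CPM at D10; 3.53) and Tnni2 (1.91) rose. The 1 neural crest gene tested did not pass.

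**Figure D4:**
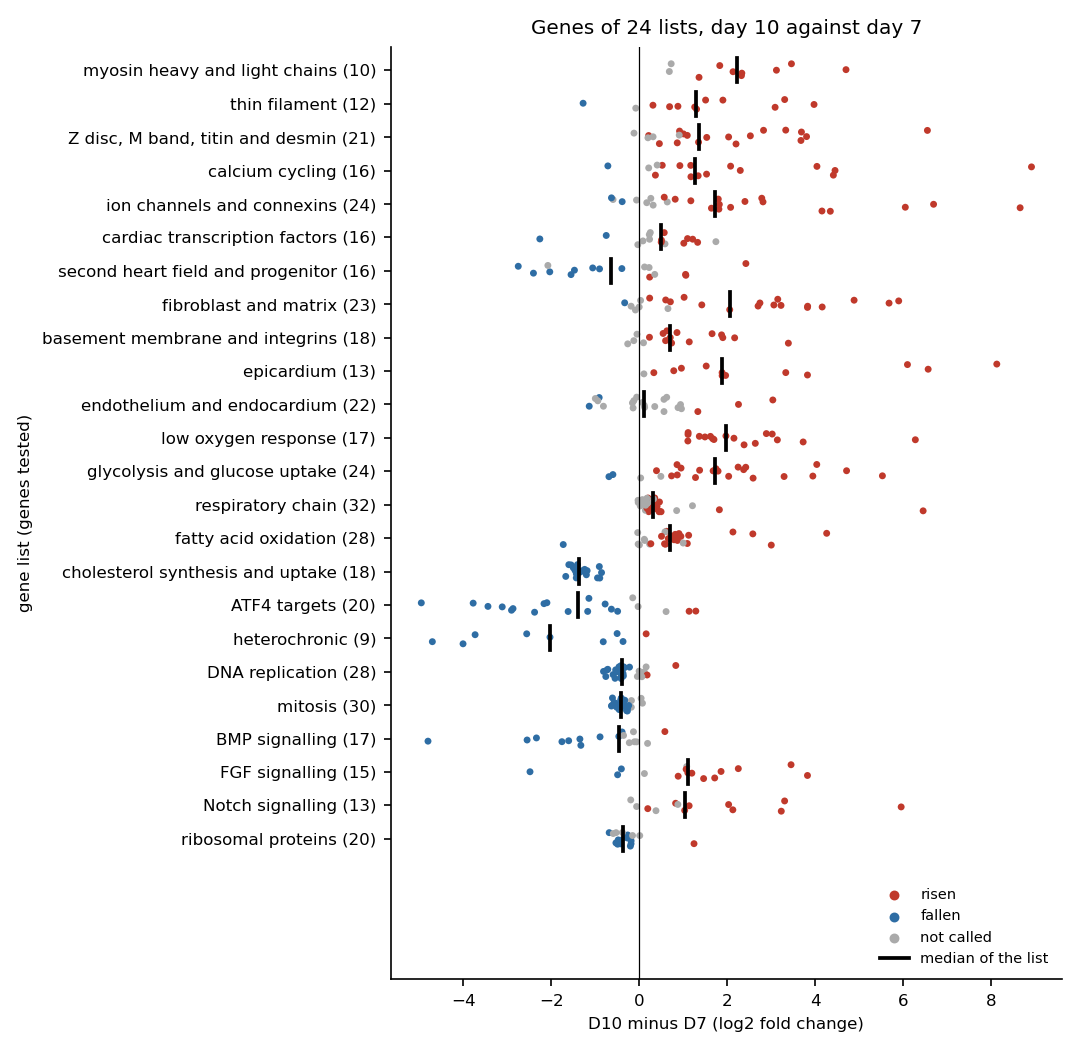
Log2 fold change, D10 minus D7 (x axis), of the tested genes of 24 lists (y axis, number tested in brackets); red points rose, blue points fell, grey points did not pass, and black bars are list medians (fitted values of genes without a D7 count, such as Casq2 and Gja5, depend on the prior count). Muscle, matrix, epicardial, low oxygen and glycolysis lists lie mostly to the right, and the cholesterol, ATF4 and heterochronic lists to the left.

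All genes of the low oxygen list rose. The list holds 17 genes induced by hypoxia-inducible factor, all 17 were tested and rose, 14 by more than 2-fold, and the median was 1.97. Pdk1, a kinase that keeps pyruvate out of the citrate cycle, read 29.8, 30.9 and 35.7 CPM at D7 and 323, 271 and 252 CPM at D10 (log2 fold change 3.14 ± 0.21, adjusted p = 3.54e-08). Egln3, a prolyl hydroxylase that marks the factor for decay and is itself its target, read 1.19, 0.463 and 0.31 at D7 and 69.5, 52.3 and 34.4 at D10 (6.27). P4ha1, a collagen prolyl hydroxylase, read 153, 162 and 181 at D7 and 418, 395 and 468 at D10 (log2 fold change 1.37 ± 0.11, adjusted p = 9.22e-09), and Kdm3a (1.11), Mxi1 (1.62) and Bhlhe40 (2.89) rose too. The days did not overlap for any gene of this list. The list held 0.0775% to 0.08% of counts at D7, 0.117% to 0.176% at D8 and 0.241% to 0.274% at D10. The labels give no oxygen level for the cultures.

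The starts of P4ha1 and Mxi1 are shown with the core of the hypoxia response element, ACGTG or its reverse complement CACGT, in capitals (GRCm38.p6, RefSeq, 200 bases up to the start). P4ha1 is chr10:59323096-59323295, plus strand, and Mxi1 is chr19:53329213-53329412, plus strand. This motif search was chosen after the values were seen. The core was found in 12 of 20 windows of the list (60%), in 24.2% of windows of risen genes, in 25.6% of windows of fallen genes and in 19.6% of all windows.
P4ha1: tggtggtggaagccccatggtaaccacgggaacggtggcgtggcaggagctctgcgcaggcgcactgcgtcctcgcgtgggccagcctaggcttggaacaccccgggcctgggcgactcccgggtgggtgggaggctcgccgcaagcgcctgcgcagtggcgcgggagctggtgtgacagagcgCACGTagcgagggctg
Mxi1: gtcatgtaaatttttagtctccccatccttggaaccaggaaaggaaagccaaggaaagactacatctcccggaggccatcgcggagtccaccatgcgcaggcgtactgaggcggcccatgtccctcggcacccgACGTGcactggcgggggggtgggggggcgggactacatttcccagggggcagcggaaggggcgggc

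Glycolytic genes rose with them. Of 24 tested, 20 rose and 2 fell, 14 rising by more than 2-fold (median 1.71). Ldha, which turns pyruvate into lactate, read 114, 106 and 94.7 CPM at D7 and 1212, 979.8 and 890.2 CPM at D10 (log2 fold change 3.29 ± 0.28, adjusted p = 4.47e-07), and Slc16a3, which exports lactate, read 29, 30.4 and 22.6 at D7 and 467, 424 and 372 at D10 (3.94). Aldoc rose by 2.37, and Pgk1, whose counts are uncertain, by 1.74. Ldha held a mean 66.8% of the Ldha and Ldhb counts at D7 and 91.1% at D10.

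Txnip, an arrestin that restrains glucose uptake and responds to glucose, read 18.3, 19.1 and 10.9 CPM at D7 and 798, 661 and 769 CPM at D10 (log2 fold change 5.52 ± 0.21, adjusted p = 2.68e-11), and its relative Arrdc4 read 1.79, 1.23 and 4.03 at D7 and 55.6, 57.8 and 72.5 at D10 (4.71). The glucose transporters Slc2a1, at 946, 1057 and 1287 CPM at D7 and 709.7, 745 and 719.8 CPM at D10 (log2 fold change -0.60 ± 0.14, adjusted p = 0.00194), and Slc2a3 (-0.69; adjusted p = 0.0264) fell, the latter not without MR26, MR27, MR32 or MR33. In shares of all counts, the neighbouring harvests place D7 at a low point. The glycolysis list held 0.804% to 0.837% of counts at D5, 0.537% to 0.591% at D6, 0.364% to 0.381% at D7, 0.462% to 0.7% at D8 and 0.874% to 1.07% at D10. D10 lay only a little above D5. Without the 50 most counted genes of each library, the list held 0.297% to 0.323% at D5 and 0.355% to 0.373% at D6. It then held 0.285% to 0.412% at D7, 0.538% to 0.806% at D8 and 0.603% to 0.78% at D10. In that setting, which can remove different members from different libraries, D7 overlapped D5 and D6, and D10 lay well above D5. Txnip stood at 115 CPM at D6, 16.1 at D7 and 366 at D8.

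Mitochondrial genes rose by less. Of 32 respiratory chain genes, 19 rose and none fell, but none of the rises passed the 2-fold test (median 0.30). Cox8b, the heart and muscle form of a cytochrome oxidase subunit, had no count at D7 and 30 counts at D10, at least 11.2-fold higher. Atp5a1, of ATP synthase, read 987, 969.9 and 958 CPM at D7 and 1366, 1262 and 1207 CPM at D10 (log2 fold change 0.40 ± 0.06, adjusted p = 2.72e-06), and Cox6c (0.46) and Atp5o (0.50) rose by similar amounts. The number of risen respiratory genes was 13 without MR27 and 23 without MR33. Of 18 genes of the citrate cycle and pyruvate entry, 11 rose and 1 fell (median 0.34): Idh2 (0.86), Suclg1 (0.48) and the kinase Pdk2 (2.34) rose and Pdha1 fell slightly (-0.17).

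Fatty acid oxidation genes rose further: of 28, 19 rose and 1 fell (median 0.69; 4 exceeded 2-fold). Cpt1a, the liver-type enzyme that admits fatty acids to mitochondria, read 5.96, 6.94 and 7.29 CPM at D7 and 127, 138 and 121 CPM at D10 (log2 fold change 4.26 ± 0.15, adjusted p = 4.27e-18). Lpl, which frees fatty acids from lipoproteins, read 67.9, 56.3 and 42.5 at D7 and 449, 435 and 451 at D10 (3.0), and Acadvl (1.09) and Hadha (0.79) rose in all libraries. Cpt1b, the muscle form, was listed as fallen (-1.72) at low counts that are uncertain. All 6 tested genes of creatine and myoglobin rose (median 2.35), though 3 did without MR32 and 4 without MR25 or MR27. Mb, myoglobin, went from 1 count to 205, a ratio of 230 (95% counting interval 40.9 to 9147). Ckb read 12.1, 6.48 and 5.27 CPM at D7 and 45.6, 37.5 and 25.3 CPM at D10 (2.19), Gatm rose by 2.51 and Gamt by 0.70.

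Cholesterol synthesis fell as a whole. All 18 genes tested fell, 14 by more than 2-fold, against 26.5% and 1.6% of all genes, with a median of -1.37 and no overlap between the days for any of them. Hmgcs1, an early synthase of the pathway, read 1767, 1915 and 1967 CPM at D7 and 681, 699 and 719 CPM at D10 (log2 fold change -1.43 ± 0.06, adjusted p = 1.35e-17), and Cyp51, a demethylase of later steps, read 465, 455 and 507 CPM at D7 and 199, 209.9 and 213 CPM at D10 (log2 fold change -1.20 ± 0.07, adjusted p = 4.07e-15). D7 was itself the highest harvest for the list, at 0.773% to 0.818% of counts. The list held 0.613% to 0.638% at D5, 0.529% to 0.6% at D6, 0.511% to 0.553% at D8 and 0.299% to 0.323% at D10. D10 therefore lay below every earlier harvest.

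Genes activated by ATF4, the factor of amino acid shortage, fell with wider range. Of 20 tested, 15 fell and 2 rose, 10 falling by more than 2-fold (median -1.39). Asns read 172, 201 and 226 CPM at D7 and 15.4, 16.7 and 11.4 CPM at D10 (log2 fold change -3.77 ± 0.15, adjusted p = 1.34e-14), and Slc7a5 read 225, 278 and 339 at D7 and 30.6, 35.4 and 31.5 at D10 (-3.11). Atf5 (-2.10) and the serine enzyme Psph (-1.61) fell, while Stc2 (1.29) and Cebpb (1.13) rose. D7 again stood apart from its neighbours: the list held 0.16% to 0.174% of counts at D5, 0.0886% to 0.102% at D6, 0.15% to 0.195% at D7, 0.0612% to 0.0708% at D8 and 0.0571% to 0.0616% at D10. Asns stood at 185 CPM at D5, 92.8 at D6, 199.7 at D7 and 38.6 at D8. A contrast of D10 with D6 was not made.

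Starts of Asns, Slc7a11 and Hmgcs1 are shown for these lists (GRCm38.p6, RefSeq, 200 bases up to the start). In Asns and Slc7a11, the cystine transporter that fell from 66 counts to 11 (log2 fold change -2.38), capitals mark TGATGNAA, an ATF4 element, on either strand. In Hmgcs1 they mark TCACNCCAC, a sterol regulatory element. Both searches were chosen after the values were seen. TGATGNAA was found in 5 of 20 windows of the ATF4 list (25%) and in 3.97% of all windows. TCACNCCAC was found in 1 of 12 windows of the cholesterol list (8.33%) and in 1.24% of all windows. Asns is chr6:7693210-7693409, minus strand, Slc7a11 is chr3:50443614-50443813, minus strand, and Hmgcs1 is chr13:119690151-119690350, plus strand.
Asns: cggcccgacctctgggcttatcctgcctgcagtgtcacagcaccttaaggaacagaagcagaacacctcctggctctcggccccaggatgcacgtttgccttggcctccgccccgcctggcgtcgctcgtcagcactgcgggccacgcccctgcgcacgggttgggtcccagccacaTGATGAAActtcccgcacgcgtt
Slc7a11: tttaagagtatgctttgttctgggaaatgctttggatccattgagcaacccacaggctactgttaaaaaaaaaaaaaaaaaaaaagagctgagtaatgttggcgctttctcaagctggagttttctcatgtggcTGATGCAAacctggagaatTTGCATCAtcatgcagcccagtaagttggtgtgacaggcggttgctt
Hmgcs1: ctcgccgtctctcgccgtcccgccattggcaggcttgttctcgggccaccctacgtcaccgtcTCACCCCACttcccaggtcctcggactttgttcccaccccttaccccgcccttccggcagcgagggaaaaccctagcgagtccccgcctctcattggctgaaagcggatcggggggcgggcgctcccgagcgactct

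Heterochronic genes, which time early development, fell: 8 of 9 fell, 5 by more than 2-fold, and 1 rose (median -2.03). Lin28a read 189, 219 and 178 CPM at D7 and 7.06, 7.6 and 7.93 CPM at D10, and its paralogue Lin28b read 74, 80.9 and 81.2 at D7 and 20.1, 20.4 and 17.2 at D10 (log2 fold change -2.03 ± 0.11, adjusted p = 5.24e-15). Trim71, a let-7 target, read 38.6, 51.2 and 56.6 at D7 and 3.53, 3.63 and 3.87 at D10 (-3.73), Sall4 read 36.5, 29.5 and 33.9 at D7 and 2, 1.55 and 2.71 at D10 (-4.00), and Arid3b fell by 2.56. Hmga2, a chromatin protein and let-7 target, did not follow, at 140.4, 136 and 133 CPM at D7 and 165, 146 and 146 CPM at D10 (log2 fold change 0.16 ± 0.07, adjusted p = 0.0446), a call lost with the 6 libraries alone and without MR26, MR27 or MR31. Lin28a was at 1021 CPM at D5 and 70.0 at D8, so D7 and D10 lie on a fall that had begun before.

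**Figure D5:**
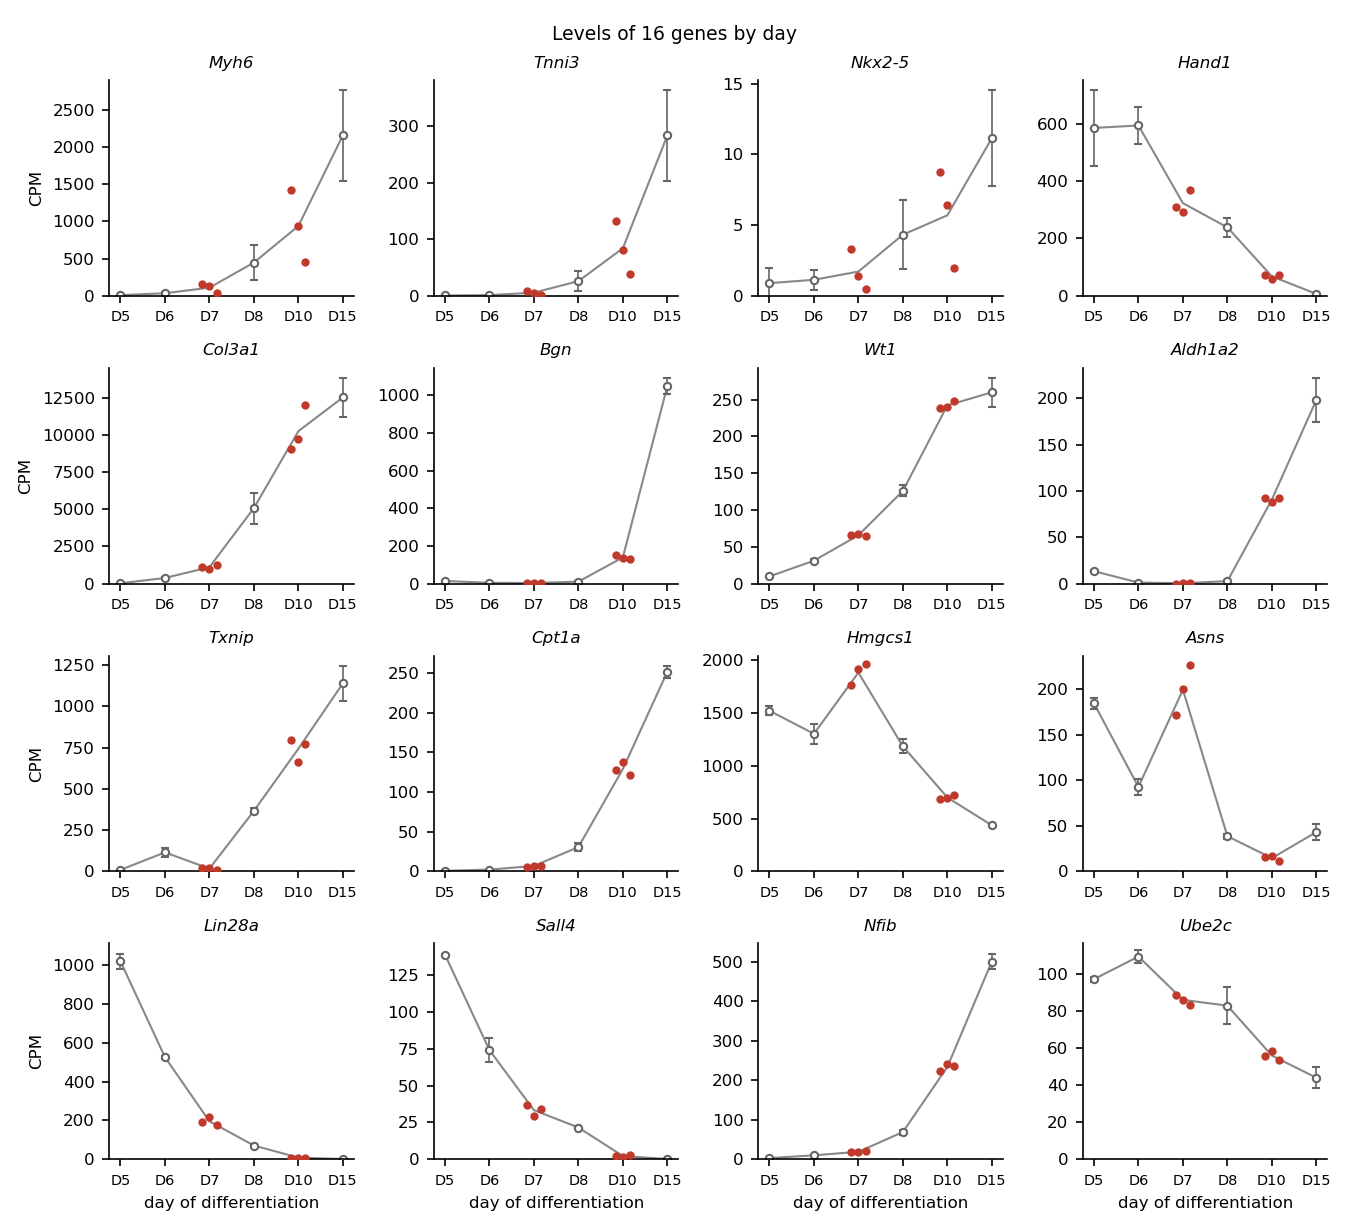
Levels (CPM, y axis) of 16 genes by day of differentiation (x axis, days evenly spaced and not to scale): D7 and D10 as 1 red point per library, other days as mean and SD of 3 libraries, with a line through the means. Aldh1a2 and Bgn stay low until D8, the means of Lin28a and Hand1 fall from each day to the next after D6, and those of Asns and Hmgcs1 are highest at D7.

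Nuclear factor I genes, a family of late-acting developmental factors, all rose: 4 of 4, each by more than 2-fold (median 2.57). Nfib read 17.4, 16.8 and 21.1 CPM at D7 and 223, 242 and 235 CPM at D10 (log2 fold change 3.66 ± 0.09, adjusted p = 1.61e-23), Nfia read 26.7, 24.2 and 26.7 at D7 and 116, 109 and 123 at D10 (2.16), and Nfic (2.32) and the sparse Nfix (2.82) rose too. Of 16 pluripotency and epiblast genes, 7 were under the filter, among them Nanog, Sox2 and Zfp42. Of the 9 tested, 3 fell (Prtg -3.64, Dnmt3b -1.76, Klf4 -0.77) and Klf2 rose (2.50). Pou5f1 had 1 count on each day.

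Cell cycle genes fell by modest amounts. Of 30 mitosis genes, 26 fell and none rose, and of 28 DNA replication genes, 20 fell and 2 rose, with medians of -0.41 and -0.40 and no change shown to exceed 2-fold. Ube2c, which loads ubiquitin onto cyclins, read 88.6, 86.1 and 83.1 CPM at D7 and 55.9, 58.4 and 53.4 CPM at D10 (log2 fold change -0.62 ± 0.09, adjusted p = 9.82e-07). Ccnb1 (-0.63), Bub1 (-0.57) and Foxm1 (-0.61) fell alike, while Mki67, the usual proliferation marker, read 367, 489.9 and 482 CPM at D7 and 447, 437 and 496 CPM at D10 and did not pass (adjusted p = 0.729). Of the replication genes, Uhrf1 (-0.71), Mcm10 (-0.81), Lig1 (-0.55) and Mcm4 (-0.53) fell, and Tk1 (0.83) and Rrm1 (0.18) rose. Mitosis genes held 0.487% to 0.522% of counts at D7 and 0.379% to 0.417% at D10. Of 17 brakes and cyclins, 9 rose and none fell (median 0.38). The retinoblastoma relative Rbl2 read 8.93, 12.2 and 13.3 CPM at D7 and 45.3, 49 and 43.1 CPM at D10 (adjusted p = 2.37e-13), and Cdkn2b (2.47), Cdkn1c (0.52) and Ccnd1 (1.51) rose.

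Promoters of Ube2c and Cdc20 are shown because most of the mitosis list fell and its windows often hold these motifs (GRCm38.p6, RefSeq, 200 bases up to the start). Capitals mark TTTGAA, the core of the cell cycle homology region, and CCAAT, on either strand. Both stretches shown hold both motifs. Those of Bub1 and Ccnb1, not shown, hold CCAAT but no TTTGAA. Cdc20, an activator of the anaphase-promoting complex, fell, at 104, 95 and 108 CPM at D7 and 71.5, 68.7 and 81 CPM at D10 (-0.47). TTTGAA was found in 19 of 26 windows of the mitosis list (73.1%) and 17.9% of all windows, and CCAAT in 21 of 26 (80.8%) and 37.4%. Of the DNA replication windows, 14 of 28 (50%) held an E2F site, against 6.23% of all windows. The site was spelled TTTCCCG in its first form searched, TTTGGCG in another and TTCGCGC in the last. It was found in 12.3% of windows of fallen genes, 7.66% of those of risen genes and 11.2% of those of genes not called. Windows of 1 gene can overlap. Ube2c is chr2:164769729-164769928, plus strand, and Cdc20 is chr4:118437344-118437543, minus strand.
Ube2c: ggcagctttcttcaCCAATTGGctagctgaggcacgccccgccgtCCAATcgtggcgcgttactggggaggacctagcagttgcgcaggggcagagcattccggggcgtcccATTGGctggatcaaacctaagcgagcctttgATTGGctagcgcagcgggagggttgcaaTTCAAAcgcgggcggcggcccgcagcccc
Cdc20: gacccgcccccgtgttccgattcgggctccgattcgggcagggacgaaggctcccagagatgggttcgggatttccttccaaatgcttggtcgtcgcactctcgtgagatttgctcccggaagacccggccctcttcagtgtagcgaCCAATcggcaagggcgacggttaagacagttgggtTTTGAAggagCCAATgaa

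Signalling genes changed pathway by pathway. In the BMP list 10 of 17 fell and 1 rose (median -0.46; 5 fell by more than 2-fold). The ligands Bmp5 (107, 134 and 136 CPM at D7 and 41.9, 37.8 and 31.3 CPM at D10; log2 fold change -1.76 ± 0.19, adjusted p = 2.36e-06) and Bmp2 (-1.35), the antagonist Nog (-2.55) and the target Msx2 (-2.33) fell, and the pseudoreceptor Bambi rose (0.58). Hedgehog readouts were low: Hhip, an antagonist induced by the pathway, went from 51 counts to 3 (a ratio of 15.1 lower, 95% counting interval 4.89 to 75.7), and Foxf1a fell (-1.55). Ptch1, the receptor and main target, read 14.7, 21.3 and 20.8 CPM at D7 and 17.3, 14.7 and 8.32 CPM at D10 and did not pass (adjusted p = 0.178), and Gli1 had 9 counts at D7 and 3 at D10 (ratio 2.67, interval 0.666 to 15.3). Of 16 Hedgehog components 8 fell and 4 rose (median -0.28): Lrp2 (-1.98), Gli2 (-0.57), Adrbk1 (-0.32) and Kif7 (-0.37) fell, and the coreceptors Gas1 (1.35) and Boc (0.47) and the cilium proteins Evc (1.29) and Evc2 (0.52) rose. The fallen components numbered 5 without MR27 or without MR31.

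In the FGF list 10 of 15 rose and 3 fell (median 1.11). The feedback inhibitors Spry4 (0.745, 1.08 and 0.775 CPM at D7 and 11.2, 7.25 and 10.4 CPM at D10; log2 fold change 3.45 ± 0.34, adjusted p = 7.65e-10), Spry1 (1.71), Spred1 (1.07) and Il17rd (1.20) rose, while the receptors Fgfr3 (227, 245 and 312 CPM at D7 and 37.9, 50.9 and 52.4 CPM at D10; log2 fold change -2.48 ± 0.14, adjusted p = 9.29e-11), Fgfr2 (-0.49) and Fgfr1 (-0.41) fell. In the Notch list 9 of 13 rose and none fell (median 1.03), among them the effectors Heyl (0.149, 0.309 and 0.155 CPM at D7 and 16.1, 15.4 and 9.67 CPM at D10; 5.95), Hey2 and Hey1 (2.13) and the modifier Lfng (2.03). Wnt readouts and antagonists split, with 4 risen and 5 fallen of 13: the targets Axin2 (-1.16), Tcf7 (-1.38) and Lef1 (-0.96) and the antagonist Sfrp5 (-1.57) fell, while Wif1 (4.16), Frzb (1.51), Dkk1 (0.90) and Sfrp1 (0.76) rose. Of 9 Wnt ligands 4 rose (Wnt5b 3.44, Wnt2b 2.10, Wnt4 1.88, Wnt11 1.05) and 2 fell (Wnt2 -0.73, and Wnt3 from 38 counts to 1).

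Retinoic acid genes rose in 6 and fell in 2 of 13 tested (median 0.28). Beside Aldh1a2 these included another synthesis enzyme, Aldh1a1 (1.49, 2.31 and 2.02 CPM at D7 and 23.8, 26.6 and 36 CPM at D10; log2 fold change 3.87 ± 0.24, adjusted p = 2.77e-12) and the receptor and target Rarb (2.83). The binding proteins Crabp1 (-2.33) and Crabp2 (67.5, 52 and 41.1 CPM at D7 and 9.52, 9.84 and 13.3 CPM at D10; -2.31) fell. Of 14 TGF-beta and YAP genes 7 rose and 4 fell (median 0.91): Ltbp3 (2.63), Ltbp1 (2.13) and the receptor Tgfbr2 (1.79) rose, and the ligand Tgfb2 (-0.66), the coreceptor Tgfbr3 (-1.25), Amotl2 (-1.01) and Ctgf (-0.65) fell. Of 17 imprinted and IGF genes 10 rose and 3 fell (median 0.49). Igfbp7 went from 1 count to 459 (ratio 516, 95% counting interval 92.2 to 20426) and Igfbp4 rose (0.88), while Igf1r (-0.48), Igfbp2 (-0.65) and Mest (-1.32) fell.

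Within a set of developmental transcription factor families (such as Hox, Fox, Tbx, Hey, Nfi and nuclear receptors, not bZIP factors such as Hlf), and with the same conditions on level and overlap as for the largest rises, the largest rises were those of Tcf21, Nfib, Hey2, Bhlhe40, Foxc2, Nfic, the glucocorticoid receptor Nr3c1 (15.3, 21.3 and 21.7 CPM at D7 and 91, 87.7 and 97.9 CPM at D10; log2 fold change 2.25 ± 0.11, adjusted p = 5.49e-16) and Nfia. The largest falls in that set included those of Msx1, Foxh1, Nr6a1 (118, 121 and 126 CPM at D7 and 6.6, 8.29 and 12.4 CPM at D10; log2 fold change -3.77 ± 0.15, adjusted p = 4.99e-15), Hoxb1, Msx2, Hoxb5 (18.8, 22.5 and 17.5 CPM at D7 and 2.46, 3.97 and 5.61 CPM at D10; -2.32) and Hand1. These rises include 3 of the 4 nuclear factor I genes.

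In CPM, the largest gains were those of Igf2, the embryonic growth factor (12549, 11943 and 12717 CPM at D7 and 21227, 21830.0 and 21774 CPM at D10; log2 fold change 0.80 ± 0.05, adjusted p = 3.37e-13), whose counts are uncertain, Col3a1, Col1a2, Col1a1, the noncoding RNA H19 (2748, 2768 and 2828 at D7 and 5309, 5584 and 5719 at D10; 0.99) and the membrane protein Itm2a (577, 529.7 and 553 at D7 and 2217, 2408 and 2868 at D10; 2.17). The largest losses were those of the chaperone Hsp90ab1 (5071, 5341 and 5438 at D7 and 3175, 3188 and 3501 at D10; -0.68), Peg10 (-0.68), Mest (2458, 2453 and 2356 at D7 and 868, 949 and 1091 at D10; -1.32), Hmgcs1, Scd2 (-0.59) and the tubulin Tubb5 (-0.60). The 50 most counted genes took 11.6% to 12.2% of counts at D7 and 13.6% to 14.5% at D10. Of 20 ribosomal protein genes 13 fell and 1 rose (median -0.36), with Rpl4 (-0.49) and Rpl8 (-0.48) among the falls. The number of falls was 8 without MR25. Rpl19 was the 1 listed as risen, with uncertain counts.

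Smaller lists gave mixed counts. Of 12 immediate early genes 7 rose, among them Junb (1.19, 0.309 and 0.775 CPM at D7 and 6.91, 4.66 and 4.25 CPM at D10; log2 fold change 2.77 ± 0.44, adjusted p = 4.3e-06), Egr1 (2.76) and Fos (1.43), and Atf3 (-1.36) and Dusp1 (-0.59) fell. Of 9 antigen presentation and interferon genes 7 rose and none fell (median 1.20), among them H2-K1 (4.32, 4.94 and 5.12 CPM at D7 and 23, 21.9 and 20.3 CPM at D10; log2 fold change 2.18 ± 0.16, adjusted p = 1.32e-12) and H2-D1 (1.20), which present peptides, and Irf1 (1.54). Of 14 p53 targets 6 fell, among them Mdm2 (-0.60) and Aen (-0.93), and Cdkn1a rose (0.49). Of 13 splicing regulators of muscle 7 rose, among them Rbfox1 (2.95), Mbnl3 (1.05) and Mbnl1 (0.84), and 4 fell: Ptbp2 (-0.72), Celf1 (-0.60), Ptbp1 (-0.22) and Qk (-0.18).

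Some calls above were lost when 1 library was left out. That of Gamt was lost without MR32, of Klf4 without MR27, of Cdkn1a without MR25 and of Atf3 without MR32 or MR33. Those of Cldn5, Ctgf, Dkk1, Pdha1, Qk, Rpl19, Rrm1, Tagln and Wnt2 were each lost in 3 or more of the 6 fits that left 1 library out. Myh7 passed without MR33, and Gata4 passed with DESeq2 and with the 6 libraries alone.

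Counts of some genes are uncertain because reads can match elsewhere. Of the 50-base windows along their GENCODE transcripts, 21.4% were unique for Cpt1b, 38.8% for Igf2, 42.6% for Rpl19, 46.1% for Pgk1, 76.6% for Ccnb1, 79% for Ldhb and 79.8% for Myh6. Exons overlap those of another gene for Acadvl (Dvl2), Tnni3 (Dnaaf3), Pln (Cep85l), Myl2 (Ccdc63), Gja5 (Gpr89) and Mb (Apol6). They also overlap for Col4a1 and Col4a2, Ube2c (Tnnc2), Cdc20 (Elovl1), Shox2 (Rsrc1), Nfix (Lyl1), Mest (Copg2) and Tagln (Pcsk7). Reads of such partners were not told apart. The table uses older names for Ctgf (now Ccn2), Foxf1a (Foxf1), Mtap2 (Map2) and Adrbk1 (Grk2). Clca1 is also an older name of Clca3a1, Dbc1 is an older name of both Brinp1 and Ccar2, and Aldh1a2, Pdk1, Ckb, Prox1, H19 and H2-K1 have each been used for another gene, so these rows are named as in the table; which gene the Clca1 and Dbc1 rows count is not settled here. Cdc20, Cox8b, Ryr2, Myoz2, Slc16a3, Slc7a11, Ldha, Ldhb, Tnni1, Fos, H2-D1, Mbnl3, Pax6, Pou5f1, Itga7 and the genes under the filter were named after their values were seen.

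The direction of these changes was set beside the whole course, D15 against D5, which shares no library with them. Of the 3597 genes that rose, 3052 (84.8%) were also higher at D15 than at D5, and these made up 57.8% of the 5283 genes higher at D15. Of the 3473 that fell, 2787 (80.2%) were also lower at D15, or 56.3% of 4948. In the opposite sense, 177 risen genes (4.92%) were lower at D15 and 242 fallen genes (6.97%) were higher. Over all genes tested, 40.3% were higher and 37.7% lower at D15 than at D5.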

How the data were processed

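PolyA mRNA-seq libraries were made with the TruSeq RNA kit and read from one end, per the labels. The authors deposited raw counts per gene symbol, 1 column per library, and STAR and the mouse build mm10 are named in the submitters' processing notes. The counting tool, annotation and use of strand are not given in the sources used here. Columns were mapped to days by their names; 3 columns of the table matched no sample and were not used. The names give no replicate number. No library pair had the likeness expected of 1 library deposited again.

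Counts were fitted in R 4.3.3 with edgeR 4.0.16 (filterByExpr with a minimum count of 10, TMM factors, robust quasi-likelihood fit) over all 18 libraries, with 12 residual degrees of freedom, and the contrast was D10 minus D7. Changes beyond 2-fold were tested with edgeR's glmTreat. All p-values in the text are edgeR's with Benjamini-Hochberg adjustment unless named otherwise. Alternatives were limma 3.58.1 (voom), DESeq2 1.42.0, other scaling factors and filters, the 6 libraries alone, and each library left out. In counts simulated for this contrast over 13116 genes with 200 changed, the share recovered was 65.7% at 1.5-fold, 76.1% at 2-fold and 93.9% at 4-fold. Of 169 calls there, 7.1% were false. Far fewer genes were changed in the simulation than the 7070 called in the data, so these shares need not hold for the real contrast. Shares of counts were compared by exact two-sided permutation over libraries. Intervals of single counts cover counting error only.

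The genes and 48 lists (681 different genes tested) were chosen with earlier results of these data known. Named genes are a set of cardiac and cell type markers, the 12 largest rises and falls with no overlap between the days, the 6 largest gains and losses in CPM, up to 4 members of each list with the smallest p among those called in the majority direction, those that moved against it, and the 8 largest rises and falls among transcription factor families. Uniqueness and exon overlap were computed from GENCODE M21, and promoter windows came from RefSeq. Values of a few named genes are not reported here.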

Additional observations from a re-analysis of the deposited data

How the results depend on the processing

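No paired analysis was possible because the columns of the count table carry no replicate number. The number of changed genes lay between 6209 and 6757 when 1 of the 6 libraries was left out, lowest without MR31, with 3218 to 3487 risen and 2991 to 3280 fallen, and 1171 to 1325 genes exceeded 2-fold. Requiring a change beyond 2-fold left 1303 of the 7070 calls, 1093 risen and 210 fallen. Of 271 named and tested genes, none that was called in the main fit or in an alternative changed direction between them. Changes of sign in genes called in neither were not counted. Leaving a library out ended the calls of 18 of these 271 genes. The fit of the 6 libraries alone and the other tools, filters and scalings, glmTreat apart, together ended those of 9. Leaving the 50 most counted genes out of the shares moved the difference D10 minus D7 from 2.55 to 0.112 percentage points for matrix genes, from 0.174 to 0.205 for low oxygen genes, from 0.586 to 0.333 for glycolysis and from -0.488 to -0.325 for cholesterol synthesis. That setting removes members of these lists that are among the 50, which were taken in each library separately. The members removed can therefore differ between libraries, and these differences need not compare the same genes. The matrix share without the 50 read 0.342%, 0.582% and 0.175% in the D7 libraries. Scaling factors moved the median of all genes to at most 0.0175 on the log2 scale. With 3 libraries a day, lists with few counts, such as those of blood and endoderm, could not be described beyond their counts.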
